A study of Homo sapiens with 6 samples.

Results

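The proteasome genes measured in NALM6 cells were taken by symbol: PSMA, PSMB, PSMC, PSMD, PSME, PSMF or PSMG followed by a number in the deposited expression table, without pseudogenes and antisense genes. This gave 44 of the 16730 genes of that table, and the same 44 Ensembl genes were found among the 57905 genes of the count table. NALM6 cells are a human line derived from a leukemia of B cell precursors (B-ALL). Both groups consisted of NALM6 cells treated for 24 h, 3 libraries with the solvent DMSO and 3 libraries with 500 nM of THZ1, a covalent inhibitor of the kinase CDK7 that is known to act on transcription by RNA polymerase II. The RNA-SEQ data were collected to find which genes THZ1 treatment changes in these leukemia cells. All libraries come from this single cell line, and the study's methods speak of independent experiments in general but do not say whether the 3 libraries of a treatment came from separate cultures, so the p-values measure the spread between these libraries.

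The proteasome is the protease that degrades proteins tagged with ubiquitin. Its 20S core is a barrel of alpha rings (PSMA genes) around beta rings (PSMB genes), and the beta rings hold the cutting sites. The 19S cap has a base of ATPases (PSMC genes) and scaffold or receptor proteins, which unfold the substrate, and a lid of PSMD proteins, which removes the ubiquitin. In lymphoid cells the cutting subunits PSMB5, PSMB6 and PSMB7 can be replaced by PSMB8, PSMB9 and PSMB10, which makes the immunoproteasome, a producer of peptides for class I antigen presentation. The PSMG genes and PSMD5, PSMD9 and PSMD10 encode chaperones that help to assemble core and base, PSME genes encode other caps that open the core, and PSMF1 encodes an inhibitor of the core.

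The canonical transcripts of the members are 785 to 8154 bases long. For 39 members a RefSeq promoter window was matched by symbol, 250 bases before to 50 bases after the start (GRCh38.p14). Only the first window of each symbol was used, and 8 members had more than 1. Letters of motifs known from proteasome promoters were searched on both strands, overlaps allowed. CCAAT, bound by NF-Y, was in 43.6% of these windows and in 35.7% of the first windows of all 27305 symbols. TGACNNNGC, the core of the element bound by NFE2L1 and NFE2L2, was in 30.8% and in 13.6%. The GC box GGGCGG was in 66.7% and in 44.6%, and the STAT motif TTCNNNGAA was in 10.3% and in 7.88%. A match is a description of the letters only. The 250 upstream bases are printed for the pair of 19S members that rose most, PSMD2 (chr3:184298991-184299240, plus strand) and PSMD11 (chr17:32444260-32444509, plus strand). They are also printed for the pair of members with the largest falls, PSMG1 (chr21:39183452-39183701, minus strand) and PSMB9 (chr6:32853942-32854191, plus strand). Each is written 5′ to 3′ on the strand of the gene and ends at the base before the start, with matches to any of the 4 motifs in capitals.
PSMD2: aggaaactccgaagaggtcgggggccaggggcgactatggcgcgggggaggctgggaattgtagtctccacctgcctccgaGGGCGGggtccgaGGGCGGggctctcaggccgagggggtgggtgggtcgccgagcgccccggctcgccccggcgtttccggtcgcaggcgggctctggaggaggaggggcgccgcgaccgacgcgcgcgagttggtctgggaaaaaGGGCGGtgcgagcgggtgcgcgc
PSMD11: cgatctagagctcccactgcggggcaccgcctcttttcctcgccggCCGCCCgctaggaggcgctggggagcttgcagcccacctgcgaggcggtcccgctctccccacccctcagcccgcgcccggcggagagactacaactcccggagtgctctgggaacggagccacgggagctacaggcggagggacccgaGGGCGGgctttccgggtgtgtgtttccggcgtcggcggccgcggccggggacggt
PSMG1: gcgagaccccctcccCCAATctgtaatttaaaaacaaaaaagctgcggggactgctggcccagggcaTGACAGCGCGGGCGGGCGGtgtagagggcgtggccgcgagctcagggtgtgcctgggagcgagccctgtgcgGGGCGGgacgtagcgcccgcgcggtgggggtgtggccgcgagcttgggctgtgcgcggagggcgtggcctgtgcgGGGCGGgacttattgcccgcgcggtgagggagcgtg
PSMB9: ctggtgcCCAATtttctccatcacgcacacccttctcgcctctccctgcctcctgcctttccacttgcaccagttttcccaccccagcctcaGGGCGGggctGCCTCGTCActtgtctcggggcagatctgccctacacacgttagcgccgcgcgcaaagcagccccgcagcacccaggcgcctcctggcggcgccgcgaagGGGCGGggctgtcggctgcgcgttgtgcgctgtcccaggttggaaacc
The windows of PSMD2 and PSMD11 held 3 and 2 GC boxes and none of the other motifs. The windows of PSMG1 and PSMB9 held 4 and 2 GC boxes with 1 CCAAT and 1 TGACNNNGC each. These windows were picked by fold change. Over all member windows, CCAAT was in 2 of 7 members higher with THZ1 and 12 of 27 lower. TGACNNNGC was in 1 of 7 and 9 of 27, and the GC box in 6 of 7 and 18 of 27. A link between motif and direction was not tested.

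The DMSO-treated libraries held 11015480 to 11164840 counts and the THZ1-treated libraries 7876402 to 8314306, so every THZ1-treated library was shallower. In every library 11 of 11 matched markers of B cell precursors were at 1 CPM or more. Their summed level was 4004 to 4164 CPM with DMSO and 2117 to 2188 CPM with THZ1, with 8 lower, 2 higher and 1 not called. Of 11 markers of other cell types 8 were under 1 CPM with DMSO. The summed level of these 11 was 7.78 to 9.18 CPM with DMSO and 33.0 to 34.4 CPM with THZ1, with no marker at 0 counts in every library. Of the 5 that passed the filter on low counts, CD14, CSF1R and COL1A1 were higher, LYZ was lower and MPO was not called. The part of either marker list in the results was not tested. Levels are given as CPM, the counts scaled to a common library size with TMM factors, and compare 1 gene between libraries. FPKM, which is also divided by length, is used where the levels of single genes are set against each other. Marker sums, class sums and shares of the member counts are not divided by length. CPM and FPKM are shares of a library, so fewer cells of a type and less RNA per cell cannot be told apart in them.

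THZ1 treatment lowered most proteasome genes and raised a few. All 44 members passed the filter on low counts, and 30 were lower and 9 higher with THZ1 (edgeR quasi-likelihood test, adjusted p below 0.05). Of all 16622 genes tested, 84.5% were called, 43.5% as higher and 41.1% as lower. Members were therefore called about as often as genes in general (88.6%), with 68.2% lower and 20.5% higher. Among the 11929 protein-coding genes tested 83.9% were called, 47.6% were lower and 36.3% were higher. The median log2 fold change was −0.48 over the members, 0.03 over all genes and −0.20 over protein-coding genes.

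The groups of 3 libraries did not overlap for 39 members, 31 with THZ1 lower and 8 with THZ1 higher. The same held for 84.7% of all genes, 41.3% with THZ1 lower and 43.4% with THZ1 higher. Most differences were moderate. Past a log2 fold change of 1.5 in size, the limit used by the study, were 4 lower members, PSMG1, PSMB9, PSMA4 and PSMD14, and 1 higher member, PSMA1. These 5 of 44 members stand beside 37.5% of all genes past this limit, 12.9% lower and 24.6% higher.

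A limit of the counts touches 5 members. The exons of PSMA1, PSMA2, PSMA6, PSMB10 and PSMD9 are shared with a counted readthrough gene on the same strand, a gene model that joins 2 neighbouring genes. The shared part of the canonical transcript was 67.0% for PSMA1, 100% for PSMA2, 81.4% for PSMA6, 56.1% for PSMB10 and 28.8% for PSMD9. The counting mode and annotation are not given in the sources used here, and a counter that discards ambiguous reads would lose the reads in shared exons. These members had 62 to 254 counts a library, the readthrough genes had 0 to 67, and what part of the members' reads was lost was not tested. Of the 39 other members, 5 were higher and 30 lower, with a median of −0.52.

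**Figure D1:**
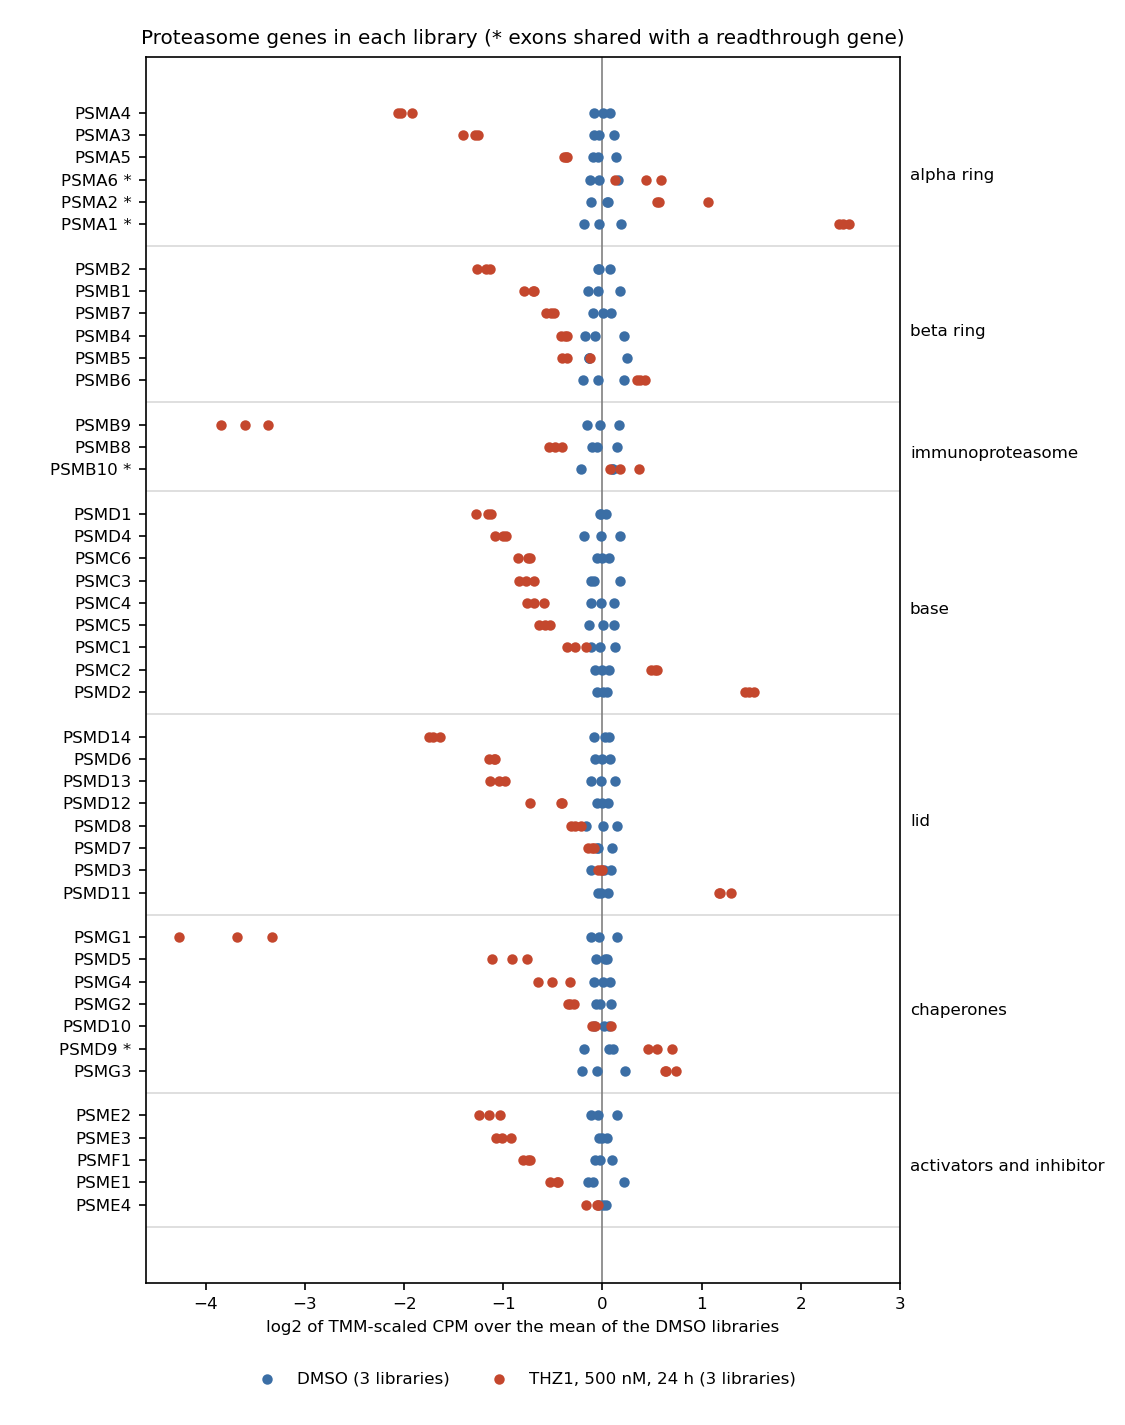
Level of each of the 44 members in each library, as log2 of the TMM-scaled CPM over the mean of the 3 DMSO-treated libraries, by class. Blue points are DMSO-treated and red points THZ1-treated libraries, and an asterisk marks the 5 members whose exons are shared with a readthrough gene. Most red points lie left of the blue ones, PSMG1 and PSMB9 farthest, whereas those of PSMD2, PSMD11 and PSMA1 lie to the right.

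The alpha ring forms the outer gate of the core. Its genes split: PSMA3, PSMA4 and PSMA5 were lower, and PSMA1, PSMA2 and PSMA6, all 3 with shared exons, were higher. PSMA4 (ENSG00000041357, chr15:78832747-78844759 in GRCh37) was at 221, 207 and 231 CPM with DMSO and at 52.5, 53.8 and 58.2 CPM with THZ1. The treated libraries lay 4.01-fold under the controls with no overlap, a log2 fold change of −2.0 ± 0.08 (SE, edgeR adjusted p = 5.9e-21). PSMA3 and PSMA5 fell by 1.32 and 0.37 on the log2 scale.

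PSMA1 (ENSG00000129084, chr11:14526420-14665181) was at 6.78, 5.82 and 5.23 CPM with DMSO and at 33.4, 31.1 and 32.0 CPM with THZ1. Its groups were far apart, with a log2 fold change of 2.43 ± 0.14 (SE, edgeR adjusted p = 7.8e-17). The direction was the same on the FPKM scale, at 5.94 ± 0.594 FPKM with DMSO and 25.2 ± 1.15 with THZ1 (SD, n = 3). FPKM came from the same libraries, and PSMA3, PSMA4 and PSMA5 were at 117, 88.9 and 59.3 FPKM with DMSO. The part of the shared exons in the PSMA1 values was not tested. PSMA2 and PSMA6, whose groups overlapped in the case of PSMA6, gave log2 fold changes of 0.74 and 0.39 on counts, but −0.16 and −0.43 by limma on log2(FPKM + 1), so their direction was not settled. The median log2 fold change of the class was 0.01 with these 3 genes and −1.32 over the other 3. PSMA7, the remaining alpha subunit, was only in the count table and so is no member, and it was lower by the same test, from 265 ± 27.8 to 99.4 ± 1.23 CPM (SD, n = 3), a log2 fold change of −1.41 ± 0.08 (SE).

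The beta rings carry the proteolytic sites. Of 6 beta genes measured 5 were lower and 1 was higher, with a median log2 fold change of −0.45. PSMB3 was not analysed here. The largest fall was that of PSMB2, a structural beta subunit, at 142, 141 and 153 CPM with DMSO and 60.5, 66.3 and 64.2 CPM with THZ1. It gave a log2 fold change of −1.19 ± 0.08 (SE, edgeR adjusted p = 2.4e-15) with no overlap between the groups. PSMB1, another structural subunit, fell by 0.73 and PSMB4, on which core assembly ends, fell by 0.39 on the log2 scale.

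The 3 cutting subunits of the constitutive core differed among themselves. PSMB7, the trypsin-like subunit, was at 140, 131 and 148 CPM with DMSO and at 97.4, 94.1 and 99.7 CPM with THZ1, which gave a log2 fold change of −0.52 ± 0.07 (SE, edgeR adjusted p = 1.2e-07). PSMB5, the chymotrypsin-like subunit that bortezomib binds, was at 25.2, 25.2 and 32.9 CPM with DMSO and at 25.5, 21.6 and 20.9 CPM with THZ1. Its groups overlapped, and although it passed the test (log2 fold change −0.29 ± 0.12 SE, edgeR adjusted p = 0.0273), the call was lost without DMSO replicate 3, THZ1 replicate 2 or THZ1 replicate 3 and under several scalings. PSMB6, the caspase-like subunit, was the only beta gene called higher, at 88.9, 80.2 and 107 CPM with DMSO and 120, 117 and 124 CPM with THZ1. Its groups did not overlap in CPM, but its log2 fold change of 0.39 ± 0.09 (SE, edgeR adjusted p = 0.00013) became 0.14 with library sizes alone (adjusted p = 0.113) and 0.10 by limma on log2(FPKM + 1) (adjusted p = 0.371).

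The immunoproteasome genes did not move together. PSMB9 (ENSG00000240065, chr6:32811913-32827628), the immunoproteasome counterpart of PSMB6, was at 54.9, 49.9 and 62.5 CPM with DMSO and at 4.6, 5.4 and 3.88 CPM with THZ1. It was 12-fold lower, a log2 fold change of −3.59 ± 0.14 (SE, edgeR adjusted p = 1e-20), and 0.884% of all genes tested had a lower fold change. PSMB8, the counterpart of PSMB5, lies beside PSMB9 in the class II region of the major histocompatibility complex. It was at 103, 99.4 and 119 CPM with DMSO and at 76.8, 73.9 and 80.6 CPM with THZ1, which gave a log2 fold change of −0.47 ± 0.08 (SE, edgeR adjusted p = 3.4e-06). PSMB10, the counterpart of PSMB7 and one of the genes with shared exons, was at 16.3, 20.4 and 20.3 CPM with DMSO and 20, 24.5 and 21.5 CPM with THZ1. The groups overlapped, and the log2 fold change of 0.21 ± 0.13 (SE, edgeR adjusted p = 0.12) was not called and was −0.04 with library sizes alone.

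TAP1, a subunit of the transporter that carries peptides into the endoplasmic reticulum, starts 488 bases from PSMB9 in the RefSeq annotation (GRCh38.p14) and is read from the other strand. It was not called, at 90.9, 94.4 and 98.5 CPM with DMSO and 102, 105 and 105 CPM with THZ1 (log2 fold change 0.13 ± 0.07 SE, edgeR adjusted p = 0.0935). Its groups did not overlap, and it was called higher with upper quartile factors (0.33, edgeR adjusted p = 0.000163) but was at −0.11 with library sizes alone (adjusted p = 0.139). An antisense gene of PSMB8 overlaps 21.5% of its canonical transcript on the opposite strand. The pair of neighbouring starts thus showed a 12-fold lower PSMB9 beside a TAP1 level of 94.6 ± 3.77 and 104 ± 1.48 CPM (SD, n = 3).

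The balance of immune to constitutive forms was read within each library as a log2 ratio of FPKM. A factor applied to a whole library does not move this ratio, but the measure used does. PSMB9 over PSMB6 was −1.98, −2.0 and −2.03 with DMSO and −6.35, −6.09 and −6.67 with THZ1, a change of −4.37. PSMB10 over PSMB7 was −3.05, −2.68 and −2.76 with DMSO and −2.09, −1.75 and −1.99 with THZ1, a change of 0.89. In both pairs the treatments did not overlap (two-sided exact permutation test, p = 0.1, adjusted p = 0.15 over 3 pairs), and 0.1 is the smallest p that 3 libraries against 3 allow. PSMB8 over PSMB5 was 0.90, 0.87 and 0.67 with DMSO and 0.41, 0.60 and 0.75 with THZ1, which overlapped (change −0.23, exact permutation p = 0.2, adjusted p = 0.2). PSMB8 thus exceeded its constitutive counterpart per length in all 6 libraries, whereas PSMB9 and PSMB10 stayed under theirs in all 6. As ratios of TMM-scaled CPM the changes were −3.99 for PSMB9, 0.74 for PSMB10 and −0.18 for PSMB8. From log2(FPKM + 1) they were −3.89, 0.88 and −0.23.

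**Figure D2:**
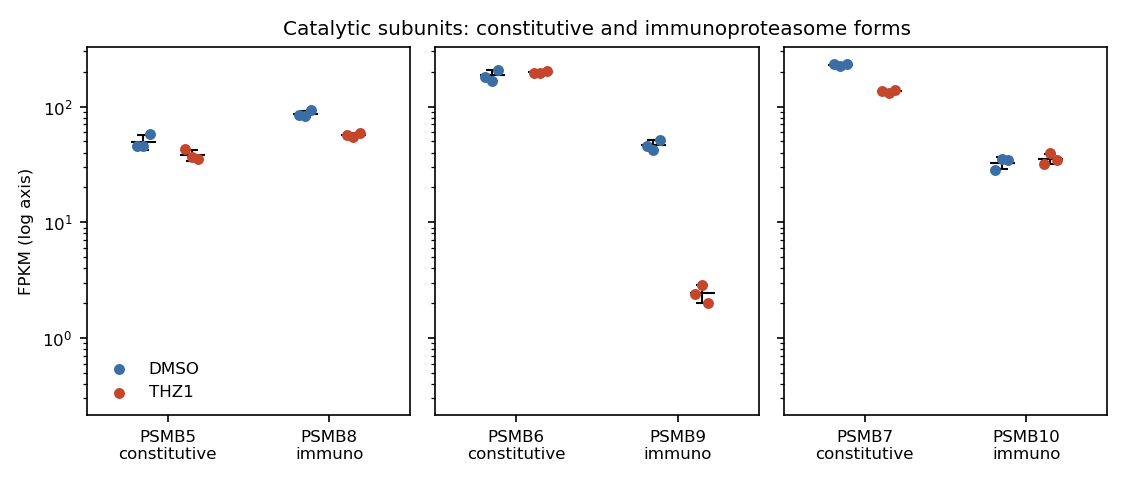
FPKM of each constitutive cutting subunit beside its immunoproteasome counterpart on a log axis, with 1 point a library and black bars for the mean and SD of 3 libraries. PSMB9 dropped from 46.4 ± 4.63 to 2.44 ± 0.442 FPKM while PSMB6 was at 186 ± 21.2 and 199 ± 4.74 FPKM.

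The base of the 19S cap holds 6 ATPases that unfold substrates and thread them into the core. Of these PSMC genes 5 were lower and 1, PSMC2, was higher. PSMC6 had the largest fall of the 6, a log2 fold change of −0.78 ± 0.08 (SE), followed by PSMC3 at −0.77, PSMC4 at −0.68, PSMC5 at −0.59 and PSMC1 at −0.27. PSMC1 shares 83.2% of its canonical transcript with NRDE2 on the opposite strand, and since the strand setting of the counting is not given in the sources used here, reads of the pair cannot be told apart. PSMC2 was at 83.3, 79.4 and 87.5 CPM with DMSO and at 122, 120 and 117 CPM with THZ1. The groups did not overlap, with a log2 fold change of 0.52 ± 0.07 (SE, edgeR adjusted p = 1.4e-07).

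The non-ATPase base subunits went opposite ways. PSMD1 and PSMD2 are the large scaffold proteins of the base, and PSMD4 is a ubiquitin receptor. PSMD1 was at 127, 128 and 132 CPM with DMSO and at 59.0, 53.2 and 57.9 CPM with THZ1, which gave a log2 fold change of −1.19 ± 0.08 (SE, edgeR adjusted p = 4e-15). PSMD4 fell by 1.02 on the log2 scale. PSMD2 (ENSG00000175166, chr3:184016986-184026838), whose promoter stands above, was at 277, 266 and 285 CPM with DMSO and rose to 794, 746 and 770 CPM. The 3 treated libraries lay 2.79-fold above the controls, a log2 fold change of 1.48 ± 0.07 (SE, edgeR adjusted p = 3.3e-19). Among all genes tested 24.8% had a higher fold change, and among protein-coding genes 15.6%. The median over the 9 base genes was −0.68.

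The lid holds the deubiquitinase PSMD14, which removes ubiquitin chains before degradation, in a dimer with PSMD7. PSMD14 (ENSG00000115233, chr2:162164936-162268228) was at 90, 83.2 and 92.5 CPM with DMSO and at 28.5, 27.1 and 26.3 CPM with THZ1. It was 3.24-fold lower and the groups were far apart, a log2 fold change of −1.69 ± 0.09 (SE, edgeR adjusted p = 1.9e-17). PSMD7, its partner, was at 141, 140 and 155 CPM with DMSO and at 137, 131 and 135 CPM with THZ1. The groups did not overlap, but the log2 fold change of −0.12 ± 0.07 (SE, edgeR adjusted p = 0.13) was not called, and 51.6% of its canonical transcript is shared with a gene on the opposite strand.

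The scaffold subunits of the lid ranged from a fall to a rise. PSMD6, PSMD13, PSMD12 and PSMD8 were lower, by 1.10, 1.05, 0.51 and 0.28 on the log2 scale. PSMD3 was at 149, 136 and 156 CPM with DMSO and at 147, 142 and 145 CPM with THZ1, overlapping groups with a log2 fold change of −0.02 ± 0.07 (SE, edgeR adjusted p = 0.795). PSMD11 (ENSG00000108671, chr17:30771397-30810337), a lid subunit that also contacts the base, was at 126, 124 and 133 CPM with DMSO and at 313, 291 and 288 CPM with THZ1. It rose in all 3 treated libraries, a log2 fold change of 1.22 ± 0.07 (SE, edgeR adjusted p = 9.4e-17). The lid as a class had 5 lower members, 1 higher member and 2 that were not called, with a median of −0.39.

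**Figure D3:**
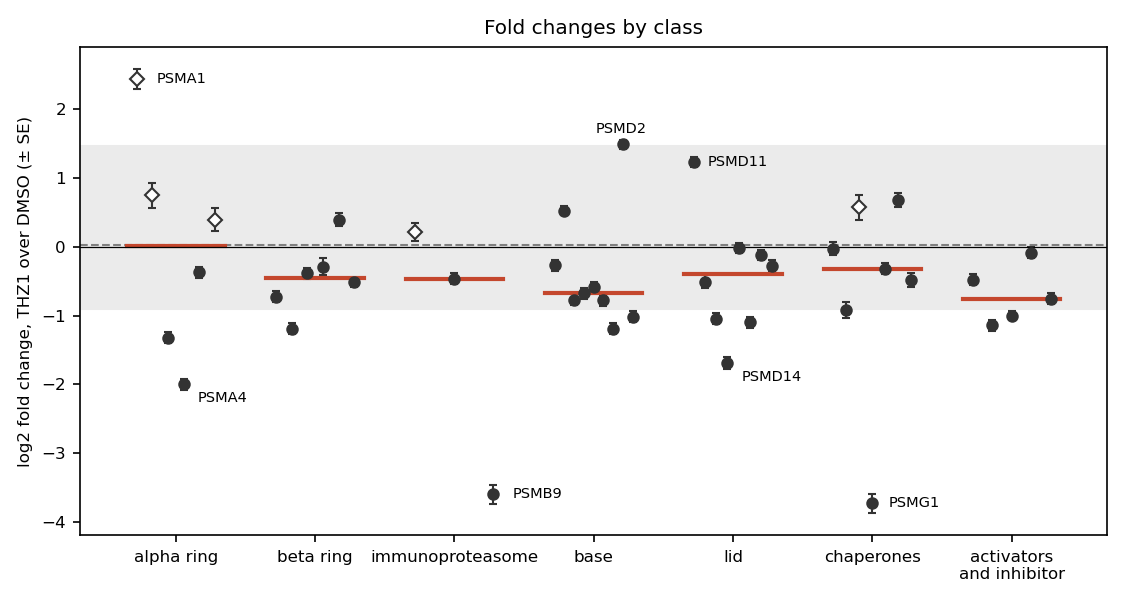
Log2 fold change with THZ1 (± SE) of each member by class from edgeR. Red bars are class medians, open diamonds are members whose exons are shared with a readthrough gene, the dashed line is the median over all genes (0.03) and the grey band runs from their lower to their upper quartile (−0.90 to 1.46). Most members lie inside the band, with PSMG1 and PSMB9 far below it and PSMD2 at its upper edge.

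The chaperones that build the proteasome are no part of the finished complex. PSMG1, which pairs with PSMG2 to start the alpha ring, had the largest fall of all 44 members. PSMG1 (ENSG00000183527, chr21:40546695-40555414) was at 78.8, 74.7 and 89.3 CPM with DMSO and at 4.21, 8.03 and 6.28 CPM with THZ1. It was 13.1-fold lower, a log2 fold change of −3.72 ± 0.14 (SE, edgeR adjusted p = 1.7e-21), and 0.722% of all genes tested had a lower fold change. Its partner PSMG2 was at 68.5, 66.6 and 74.3 CPM with DMSO and at 57.2, 55.0 and 55.5 CPM with THZ1, which gave a log2 fold change of −0.32 ± 0.08 (SE, edgeR adjusted p = 0.00073). Per length, PSMG1 was above PSMG2 in the controls, at 106 ± 5.05 against 71.3 ± 2.05 FPKM, and below it with THZ1, at 6.22 ± 2.42 against 52.4 ± 1.01 FPKM (SD, n = 3).

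The second chaperone pair, PSMG3 and PSMG4, moved in opposite directions. PSMG3 was at 35.8, 32.2 and 43.6 CPM with DMSO and at 57.5, 57.9 and 62.2 CPM with THZ1, which gave a log2 fold change of 0.67 ± 0.10 (SE, edgeR adjusted p = 2.7e-07), and PSMG4 fell by 0.49. Of the chaperones that load the base, PSMD5 fell by 0.92, whereas PSMD10 was at 33.6, 31.4 and 34.9 CPM with DMSO and at 31.7, 31.0 and 35.3 CPM with THZ1. The PSMD10 groups overlapped and its log2 fold change of −0.03 ± 0.10 (SE, edgeR adjusted p = 0.812) was not called. PSMD9, with shared exons, gave 0.57 on counts but −0.48 by limma on log2(FPKM + 1).

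The alternative caps and the inhibitor were lower or not called. PSME1 and PSME2 form the interferon-inducible cap that works with the immunoproteasome. PSME1 was at 221, 214 and 275 CPM with DMSO and at 172, 164 and 173 CPM with THZ1, which gave a log2 fold change of −0.48 ± 0.08 (SE, edgeR adjusted p = 1.7e-06). PSME2 was at 202, 193 and 232 CPM with DMSO and at 102, 88.0 and 94.5 CPM with THZ1, which gave a log2 fold change of −1.14 ± 0.08 (SE, edgeR adjusted p = 1.6e-14). The partner genes thus both fell, PSME2 by more. PSME3, which forms a nuclear cap of its own, was at 217, 225 and 213 CPM with DMSO and at 108, 115 and 104 CPM with THZ1 (log2 fold change −1.0 ± 0.07 SE, edgeR adjusted p = 2.7e-14).

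PSMF1, the inhibitor, was at 82.3, 79.3 and 89.5 CPM with DMSO and at 50.4, 49.8 and 48.1 CPM with THZ1, which gave a log2 fold change of −0.76 ± 0.08 (SE, edgeR adjusted p = 6.9e-10). PSME4, a large activator known from histone degradation, was at 97.5, 100 and 94.9 CPM with DMSO and at 93.6, 94.8 and 86.9 CPM with THZ1. The PSME4 groups lay just apart, and the log2 fold change of −0.09 ± 0.08 (SE, edgeR adjusted p = 0.28) was not called.

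Proteasome subunits are built into 1 complex in fixed numbers, so the levels per length were set side by side. With DMSO, the 26 core and 19S members without shared exons ran from 27.9 ± 1.49 FPKM (PSMD6) to 256 ± 22.0 FPKM (PSMB4), and the highest was 8.62 to 9.56 times the lowest within a library. With THZ1 they ran from 8.64 ± 0.453 FPKM (PSMD14) to 376 ± 10.7 FPKM (PSMD2), 42.4 to 45.3 times (SD, n = 3). Levels of the subunits thus lay farther apart in every THZ1-treated library than in any DMSO-treated one. The same held within each class: the SD of log2 FPKM was 0.884 to 0.913 with DMSO and 1.18 with THZ1 over 9 core genes, 0.787 to 0.804 and 1.23 to 1.24 over 9 base genes, and 0.971 to 1.00 and 1.49 to 1.55 over 8 lid genes. This spread is a description, since the genes are not replicates.

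Among the core genes the order of the controls was led by PSMB4 at 256 ± 22.0, PSMB1 at 232 ± 14.7 and PSMB7 at 230 ± 4.32 FPKM. PSMB4 was highest in each control library, whereas PSMB1 and PSMB7 changed places between libraries. PSMB5 was lowest at 49.8 ± 7.30 FPKM, near PSMA5 at 59.3 ± 3.70 FPKM. With THZ1, PSMB6 led at 199 ± 4.74 FPKM and PSMA4 was lowest at 19.9 ± 1.29 FPKM (SD, n = 3). In the lid, PSMD7 was highest in both treatments, at 155 ± 3.17 and 125 ± 2.15 FPKM, while PSMD11 passed PSMD8 (50.4 ± 0.964 against 123 ± 7.63 FPKM with DMSO, and 107 ± 4.48 against 90.3 ± 3.21 FPKM with THZ1).

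**Figure D4:**
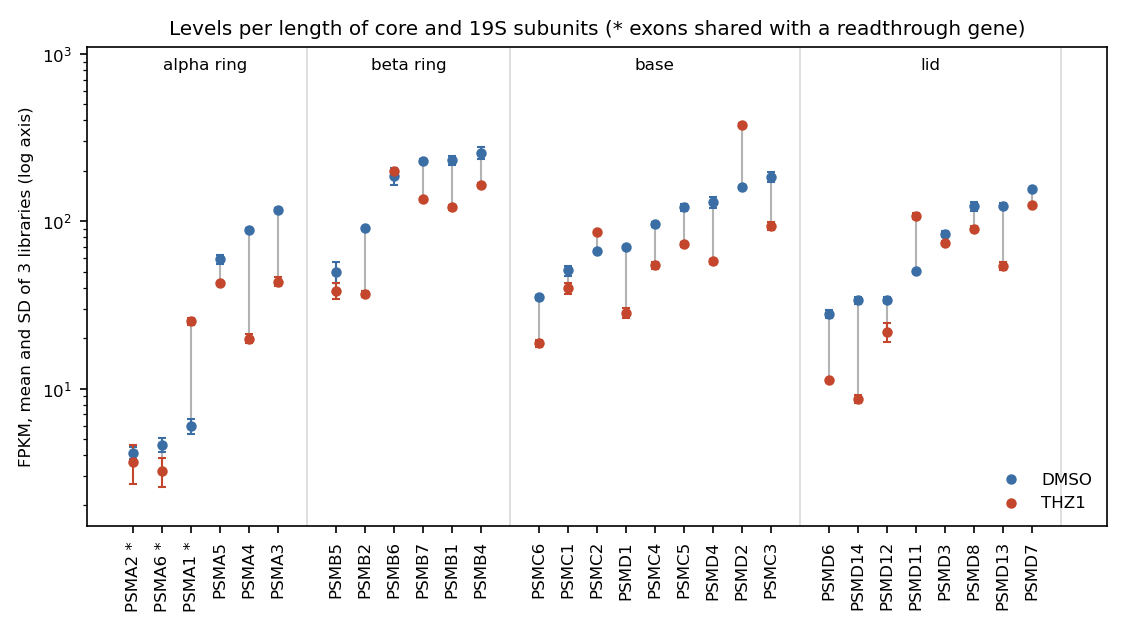
FPKM of the core and 19S members on a log axis, with points and bars for the mean and SD of 3 libraries, ordered within each class by the level with DMSO. Grey lines join DMSO (blue) and THZ1 (red), and an asterisk marks exons shared with a readthrough gene. PSMD2 rose to the highest level of the base members and PSMD11 to the level next below PSMD7 among the lid members, whereas PSMD14 fell to 8.64 FPKM.

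The summed counts of the classes, as shares of all unscaled counts, differed between core and base. All members together took 0.524% ± 0.0253 of the counts with DMSO and 0.361% ± 0.00336 with THZ1 (SD, n = 3), and the 20S core took 0.136% ± 0.00913 and 0.0737% ± 0.00137. The immunoproteasome genes took 0.0198% ± 0.00144 and 0.00949% ± 0.000198, and the lid 0.107% ± 0.00403 and 0.0817% ± 0.00184. In each of these the treatments did not overlap. The base genes took 0.134%, 0.13% and 0.142% with DMSO and 0.133%, 0.127% and 0.13% with THZ1, which overlapped.

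PSMD2 and PSMD11 took a larger part of the member counts with THZ1. PSMD2 alone made up 5.74% ± 0.217 of the member counts with DMSO and 19.5% ± 0.399 with THZ1, and PSMD11 2.66% ± 0.0886 and 7.52% ± 0.295 (SD, n = 3). The base and lid without these 2 genes took 0.199% ± 0.00958 of all unscaled counts with DMSO and 0.114% ± 0.00107 with THZ1. This share was 1.74 times as high in the controls, beside 1.85 times for the core, both without TMM scaling.

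Proteins without a PSM symbol also belong to the proteasome. In a list of 15 such subunits, assembly factors and bound factors, 4 genes were higher and 9 lower, with a median log2 fold change of −0.53. ADRM1, the ubiquitin receptor that docks on the base subunit PSMD1, was at 101, 92.0 and 125 CPM with DMSO and at 909, 990 and 1016 CPM with THZ1. It rose 9.15-fold (log2 fold change 3.19 ± 0.09 SE, edgeR adjusted p = 9.4e-25), while 26.7% of its canonical transcript overlaps genes on the opposite strand, LAMA5 among them. The other 19S protein of the list, the small lid subunit SEM1, was lower at 56.0 ± 2.51 and 25.1 ± 1.19 CPM (SD, n = 3, log2 fold change −1.16 ± 0.10 SE). POMP, which matures the core together with the PSMG chaperones, was lower at 156 ± 15.4 and 54.5 ± 4.03 CPM (SD, n = 3, log2 fold change −1.52 ± 0.08 SE). The lowest value of the list was that of UBE3C, a ubiquitin ligase bound to the proteasome, at −2.30 ± 0.10 (SE).

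Proteasome genes are known to be induced together through NFE2L1, a factor held in the endoplasmic reticulum until NGLY1 removes its sugars and DDI2 cuts it free. Of 12 genes of this regulation and of other known regulators, 3 were higher and 9 lower, with a median of −0.49. NFE2L1 was lower at 127 ± 6.20 and 110 ± 1.35 CPM (SD, n = 3, log2 fold change −0.21 ± 0.07 SE, edgeR adjusted p = 0.00959). This call depended on the scaling, since NFE2L1 was at −0.01 with upper quartile factors (edgeR adjusted p = 0.875). DDI2 was lower with a log2 fold change of −1.30 ± 0.10 (SE), with 20.6% of its canonical transcript shared with RSC1A1 on the same strand, and NGLY1 was lowest of the list at −2.02 ± 0.10 (SE). The highest was FOXO4, a forkhead factor reported to raise PSMD11 in stem cells, at 10.4 ± 1.77 and 56.9 ± 2.62 CPM (SD, n = 3, log2 fold change 2.45 ± 0.12 SE).

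Upstream of the proteasome, the 10 genes of ubiquitin, its activation and its shuttling reported here gave 4 higher and 3 lower, with a median of 0.04. Among these UBQLN2, a shuttle factor, was highest at 43.2 ± 0.673 and 79.0 ± 1.42 CPM (SD, n = 3, log2 fold change 0.87 ± 0.08 SE), and UBA6, an activating enzyme, was lowest at −0.80 ± 0.09 (SE). Downstream, 15 genes of class I antigen processing gave 3 higher and 9 lower, with a median of −0.40. ERAP2, a peptidase that trims peptides, was lowest at −2.54 ± 0.11 (SE), and HLA-B, which presents them, was highest at 0.68 ± 0.07 (SE). These lists were chosen with earlier results of the data known, and their counts stand beside the 43.5% of all genes called higher and 41.1% called lower.

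**Figure D5:**
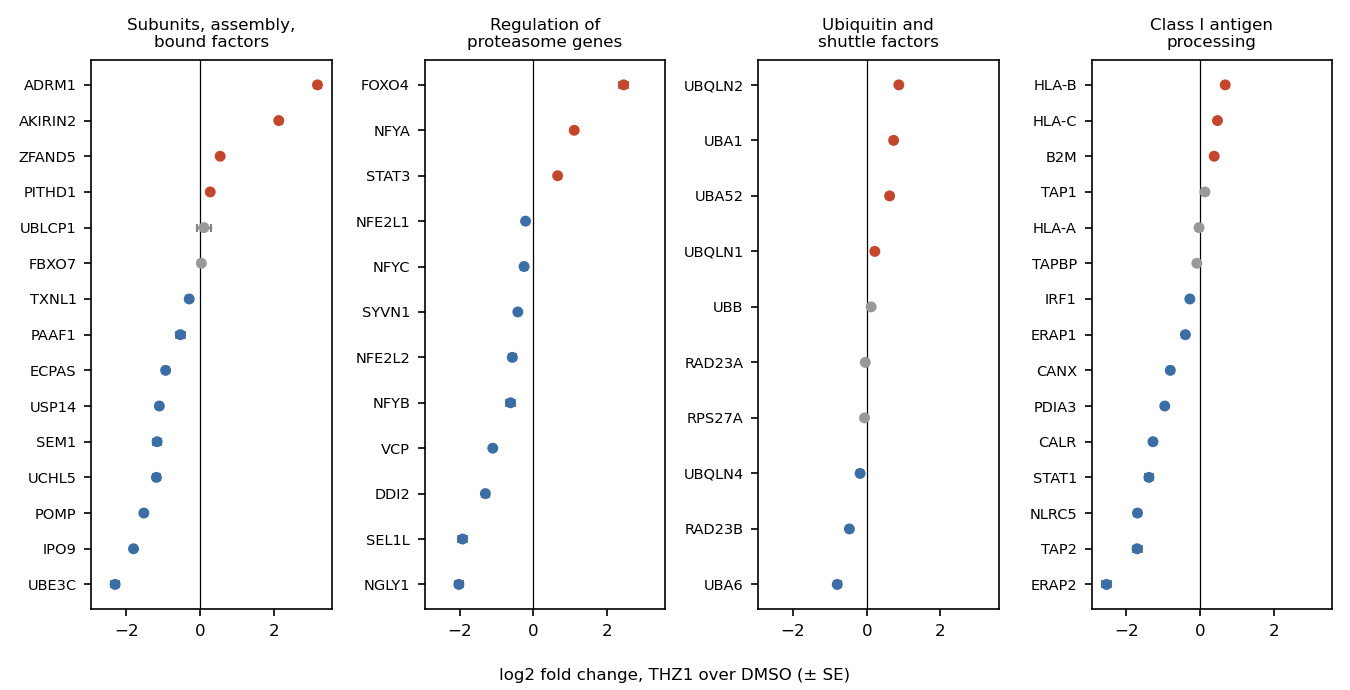
Log2 fold change with THZ1 (± SE) of genes without a PSM symbol in 4 lists. Red points were called higher, blue points lower and grey points not called by edgeR at an adjusted p below 0.05. ADRM1 (3.19) is the highest value shown and ERAP2 (−2.54) the lowest.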

How the data were processed

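RNA-SEQ counts of NALM6 cells were analysed, 3 libraries with DMSO and 3 with THZ1. Unnormalized read counts were deposited by the authors, who trimmed the reads, aligned these to GRCh37 (STAR) and counted per gene with htseq-count. A second table, deposited on a log2 scale, holds FPKM calculated by RSEM. It was read as log2(FPKM + 1) and taken back to FPKM, although the analysis had been planned for linear FPKM. Annotation, strand setting and log offset are not given in the sources used here. The columns of the authors' own p-values and fold changes were not used. A few results are not reported here.

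The members, classes and lists were chosen with earlier results of these data known. Genes were filtered by filterByExpr (at least 10 counts and 15 in total), scaled by TMM (factors 1.06 to 1.11 with DMSO and 0.915 to 0.920 with THZ1) and fitted with the quasi-likelihood test of edgeR, and p-values were adjusted by the Benjamini-Hochberg method over every gene in the fit. Tests are two-sided. Named with statistics are the extremes of each class, the cutting subunits, caps and inhibitor, members not called or past the fold limit of 1.5, and in other lists the extremes with ADRM1, SEM1, POMP, NFE2L1, DDI2 and TAP1. Other members are given by fold change, and PSMA7 and members whose direction differed between tables by their values. GRCh37 positions and overlaps come from GENCODE annotation of the canonical transcript. Alternatives were other scalings and filters, DESeq2, limma on the FPKM table (pseudocount 1 or 0.1), a replicate block and each library left out. Leaving out the members with shared exons was chosen after seeing the data. Replicate libraries differed by more than sampling noise (chi-square per gene 1.81 to 9.35). A floor of 3 counts was at most 0.253 CPM with DMSO and 0.415 CPM with THZ1, for counting error only. The pipeline was tested on simulated counts. R 4.3.3, edgeR 4.0.16, limma 3.58.1, DESeq2 1.42.0, Python 3.11.15, numpy 2.4.6, pandas 2.3.3, scipy 1.17.1 and matplotlib 3.10.9 were used.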

Additional observations from a re-analysis of the deposited data

How the results depend on the processing

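Of 44 member fold changes, 31 kept their direction and their side of the threshold under all 16 alternatives. The log2 fold changes of single genes moved by a median of −0.25 with library sizes alone, of 0.19 with upper quartile factors and, over the genes kept, of 0.13 with at least 10 counts in every library. Members near no change then changed sign. PSMD3 became 0.05 with DESeq2 and with RLE factors, 0.11 with at least 10 counts, 0.17 with upper quartile factors and 0.00 without DMSO replicate 3, in a range of −0.10 to 0.00 over the libraries left out. In the same order without the last, PSMD10 became 0.04, 0.04, 0.11 and 0.17. PSMD7 became 0.02 with at least 10 counts and 0.08 with upper quartile factors, PSME4 became 0.05 and 0.11, and PSMB10 became −0.04 with library sizes alone. By limma on FPKM with pseudocounts of 1 and 0.1, PSMA2 became −0.16 and −0.20, PSMA6 −0.43 and −0.53, and PSMD9 −0.48 and −0.67, and leaving out the FPKM filter changed none of these 3. Calls were lost under at least 1 alternative for PSMA2, PSMA6, PSMB5, PSMB6, PSMC1, PSMD8, PSMD9 and PSMG2, and that of PSMA6 also without DMSO replicate 1 or 2 or THZ1 replicate 2 or 3. Calls were gained under at least 1 alternative for PSMB10, PSMD3, PSMD7, PSMD10 and PSME4, that of PSMD7 also without DMSO replicate 2 (−0.16, edgeR adjusted p = 0.0269). The cause of these changes was not tested.

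Higher members numbered 5 in each of the 3 limma settings and without the members with shared exons, instead of 9, and 15 members passed a fold limit of 1 instead of 5. The class median minus the median of all genes was −0.02 for the alpha ring, −0.48 for the beta ring, −0.50 for the immunoproteasome, −0.71 for the base and −0.42 for the lid. With at least 10 counts in every library these were 0.17, −0.29, −0.31, −0.52 and −0.24, and with no filter −0.52, −0.99, −1.01, −1.21 and −0.93. The first alternative tested 12808 genes and the second 30884. By limma the alpha ring was at −0.29 or, with a pseudocount of 0.1, −0.31, where the base was at −0.63. Without the members with shared exons the alpha ring was at −1.34 and the immunoproteasome at −2.06. Leaving out single libraries, the alpha ring ran from −0.11 to 0.03, the beta ring from −0.60 to −0.44 and the base from −0.82 to −0.68.

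Same-numbered libraries did not deviate together (correlations −0.0040, 0.00097 and 0.0206), so the numbers do not pair the samples. A replicate block left 9 higher and 30 lower, with no member call changed. The 3 ratios of immune to constitutive forms cannot reach a p below 0.1 with 3 libraries a group. Genes with shared exons or few counts limit what can be said of PSMA1, PSMA2, PSMA6, PSMB10 and PSMD9, which also have the widest standard errors of all members outside PSMG1 and PSMB9.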

Other observations

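Across the 39 members without shared exons, the log2 fold change went with no feature of the gene by more than a weak rank correlation. Spearman's rho was −0.15 with the span of the gene (2359 to 116272 bases), 0.04 with the length of the canonical transcript, −0.04 with its number of exons and −0.10 with the mean CPM in the controls. These are correlations across genes, which are not independent replicates and share the same 6 libraries.

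The tissue-restricted core subunits were outside the member rule. PSMA8, the alpha subunit of the testis, had 0 counts in all 6 libraries, which allows up to 0.253 CPM with DMSO and 0.415 CPM with THZ1. PSMB11, the cutting subunit of the thymus, had 0 counts in each DMSO-treated library and 7, 3 and 8 counts with THZ1, too few for the filter and so not tested. A total of 42 pseudogenes named after 16 of the members have rows in the count table. How the counting treated reads of a gene and a near-identical copy is not given in the sources used here.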
